A study of Homo sapiens with 7 samples.

Results

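Head-to-head promoters are stretches of DNA from which a pair of neighbouring genes is transcribed in opposite directions, with both transcription start sites (TSS) close together. In the HepG2 expression table, 345 such pairs were found, which hold 690 of 13270 named loci on chromosomes 1 to 22 that have unique coordinates and a strand. A pair was a minus-strand locus whose end lay at most 1 kb before the start of a plus-strand locus, and measured values were not used to choose it. The strand was inferred from the order of locus numbering, since the table has no strand column. Of the 690 loci, 378 have exactly 1 RefSeq promoter, and the RefSeq strand was the same in 378 of 378. It follows that the 116 pairs with such a promoter for both loci were all head to head by RefSeq strand. In 104 of these 116 (89.7%) the RefSeq gap was also 0 to 1000 bp, and in the others it lay outside that range.

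HepG2 is a human hepatocellular carcinoma cell line that keeps many functions of liver cells. In untreated cultured cells, native nucleosome positions were mapped by MNase-Seq, 5 histone marks (H3K4me3, H3K9ac, H3K27ac, H3K27me3 and H3K9me3) by ChIP-Seq and RNA by RNA-Seq, with 1 sample per assay and 7 in all. There are no groups of samples, so no P value was computed, and no sample of another cell type or treatment was compared. The mark lists hold 26271 to 95886 called nucleosomes each, the MNase-Seq list holds 14217405 positions, and neither gives read counts, so the depth behind a position is unknown. The expression table gives 2 columns of FPKM (fragments scaled to transcript length and to the number of mapped fragments, a level that can be compared between genes), and it is not stated whether they are separate cultures. Liver markers were high, with a mean FPKM of 10011 for ALB (albumin) and 3798 for AFP (alpha-fetoprotein), while PTPRC and CD3E, which mark blood cells, were listed at 0 and PECAM1, COL1A1, ESR1 and NANOG lay between 0.0078 and 0.716.

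H3K4me3, H3K9ac and H3K27ac are marks of active promoters, and the study calls a nucleosome with all of them and no other mark trivalent ("T"). H3K27me3 is laid down by Polycomb complexes at silent genes of many lineages, and H3K9me3 marks heterochromatin. At a promoter that fires in both directions, a region depleted of nucleosomes lies between the starts, and the nucleosomes on either side are at the same time downstream of a start and upstream of its partner. Marks were counted by nucleosome position in a window of 2 kb around the midpoint between both starts, and on the own side of a locus, which is 2 kb from its start into the locus. A trivalent position means that all 3 marks were called at that position across the cell population, not that they were shown on the same molecule. A locus was called expressed at a mean FPKM of 1 or more, silent below 0.1 and intermediate between these. A low FPKM can come from few cells or from little RNA per cell, which cannot be told apart here.

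The stretches between the starts of 6 pairs described below are shown. They are the plus strand 5′ to 3′ from RefSeq (GRCh38.p14), ending at the base before the RefSeq start of the plus-strand gene and reaching back to the start of its partner or 250 bases. Capitals mark the CCAAT box (CCAAT or ATTGG) and the GC box (GGGCGG or CCGCCC), the only motifs of those searched that these stretches hold. SEP15/HS2ST1 (chr1:86914578-86914634, 57 bases) and HADHA/HADHB (chr2:26244689-26244938, 250 bases) are pairs with both loci strongly expressed. NDUFA8/MORN5 (chr9:122159780-122159907, 128 bases) joins an expressed locus to a silent partner. ANKRD27/RGS9BP (chr19:32675598-32675847, 250 bases), COL4A1/COL4A2 (chr13:110307158-110307283, 126 bases) and LOC283731/ISLR2 (chr15:74129405-74129654, 250 bases) are pairs with H3K27me3 in the window of 2 kb. At ANKRD27/RGS9BP and COL4A1/COL4A2 the positions with this mark lay past the listed start of the plus-strand locus, not between the starts.
SEP15/HS2ST1: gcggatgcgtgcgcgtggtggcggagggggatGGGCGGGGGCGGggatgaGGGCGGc
HADHA/HADHB: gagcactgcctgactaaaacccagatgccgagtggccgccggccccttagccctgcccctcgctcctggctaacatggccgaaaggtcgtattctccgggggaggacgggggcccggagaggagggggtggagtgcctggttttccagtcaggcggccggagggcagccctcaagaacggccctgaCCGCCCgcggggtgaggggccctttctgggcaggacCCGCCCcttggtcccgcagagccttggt
NDUFA8/MORN5: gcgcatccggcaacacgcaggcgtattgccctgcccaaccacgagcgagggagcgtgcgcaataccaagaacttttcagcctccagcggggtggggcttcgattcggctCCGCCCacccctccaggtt
ANKRD27/RGS9BP: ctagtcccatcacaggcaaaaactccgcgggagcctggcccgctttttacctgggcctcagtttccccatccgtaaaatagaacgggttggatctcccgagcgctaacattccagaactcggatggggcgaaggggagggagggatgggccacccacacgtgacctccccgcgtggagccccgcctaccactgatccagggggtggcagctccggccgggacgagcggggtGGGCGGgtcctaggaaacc
COL4A1/COL4A2: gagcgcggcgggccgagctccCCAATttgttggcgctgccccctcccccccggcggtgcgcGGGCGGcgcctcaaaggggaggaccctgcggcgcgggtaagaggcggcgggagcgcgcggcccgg
LOC283731/ISLR2: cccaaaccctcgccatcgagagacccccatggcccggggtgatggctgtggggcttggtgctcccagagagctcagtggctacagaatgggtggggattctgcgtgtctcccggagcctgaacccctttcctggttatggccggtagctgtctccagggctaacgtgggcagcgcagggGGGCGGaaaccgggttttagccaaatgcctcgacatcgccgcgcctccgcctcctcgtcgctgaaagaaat
The GC box stands in all 6 stretches, in the pairs with 2 expressed loci and in the silent pair LOC283731/ISLR2 alike. The RefSeq starts are not always those of the expression table: between the HADHA and HADHB starts there are 306 bases in RefSeq and 21 in the table.

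In the table the starts lay close together. The median gap was 100 bp, and from the 10th to the 90th percentile the gaps ran from 23.4 to 469.6 bp. In all, 249 pairs (72.2%) were at most 200 bp apart. The 3 pairs just inside the limit of 1 kb were CKB/TRMT61A at 988 bp, SYMPK/FOXA3 at 969 bp and CCDC58/FAM162A at 931 bp. The 3 just outside it were C2orf7/CCT7 at 1007 bp, SART3/ISCU at 1017 bp and USH1G/OTOP2 at 1018 bp. CKB/TRMT61A held no trivalent nucleosome in its window, SYMPK/FOXA3 held 4 and CCDC58/FAM162A held 7, while the 3 outside held 7, 5 and 0. In 342 of the 345 pairs no named start other than the pair's own lay within 2 kb of the midpoint, and the exceptions were HIST2H2BE/HIST2H2AC, MUC1/MIR92B and BTG4/MIR34B.

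Active marks were found at most head-to-head promoters. H3K4me3 was called in 302 of 345 windows (87.5%, exact 95% interval 83.6 to 90.8), against 52.6% of windows around the starts of the 12580 other loci and 54.4% of all 13270 analysed loci. H3K9ac was called in 84.9% of pair windows (51.1% of all analysed loci), and H3K27ac in 82.0% (45.2% of all). A trivalent nucleosome stood in 276 windows (80.0%, interval 75.4 to 84.1), compared with 41.3% of other loci and 43.3% of all. At least 3 of them stood in 64.1% of pair windows, with 28.5% of all analysed loci. All intervals cover counting error only, since each assay is 1 sample.

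The repressive marks had lower shares in pair windows, where fewer loci were silent (16.8% of pair loci and 42.4% of other loci). H3K27me3 was called in 16 pair windows (4.64%, interval 2.67 to 7.42), compared with 9.36% of other loci and 9.11% of all analysed loci. H3K9me3 was called in 1 pair window, IGSF11/C3orf30 (0.290%, interval 0.00734 to 1.60), compared with 2.47% of other loci and 2.36% of all. Taken by position, 1199 of 6365 nucleosomes in pair windows were trivalent (18.8%), whereas 7.39% were in the windows of other loci. A pair window holds 2 starts and another locus' window usually 1, so these shares do not compare single starts.

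Loci in pairs were expressed more often than other loci. Of the 690 pair loci, 505 had an FPKM of at least 1 (73.2%, interval 69.7 to 76.5), against 46.7% of the other loci and 48.1% of all analysed loci. There were 116 silent pair loci, and 41.1% of all analysed loci were silent. Once expressed, their level was like that of others, with a median FPKM of 13.0 in 505 pair loci and 12.4 in 5879 other expressed loci. The 2 FPKM columns stayed close: the median fold between them was 1.04 in expressed pair loci, and 0 of the 505 differed by over 2-fold. Only 8 pair loci were at 1 or more in 1 column and below it in the other, among them TSPAN10 (1.20 and 0.965) and FBXO48 (0.723 and 1.29).

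Both loci were expressed in 214 pairs (62.0%, interval 56.7 to 67.2). An expressed locus stood beside an intermediate partner in 44 pairs and beside a silent partner in 33. In 24 pairs neither was expressed but at least 1 was intermediate, and in 30 pairs both were silent. The rank correlation of the partners' FPKM was 0.32 over 345 pairs, a description that shares 1 RNA sample. Over the 214 pairs with both loci expressed, the rank correlation was 0.067, near the values for 83 tandem (0.068) and 146 convergent neighbours (0.065) with both loci expressed. In those pairs the higher locus had a median of 2.85 times the FPKM of the lower, 82 pairs lay within 2-fold and 44 were over 10-fold apart. The corresponding rank correlation was 0.46 over 369 head-to-head pairs with a gap of 1 to 10 kb, 0.67 over 270 tandem neighbours within 1 kb and 0.21 over 295 convergent neighbours within 1 kb.

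**Figure D1:**
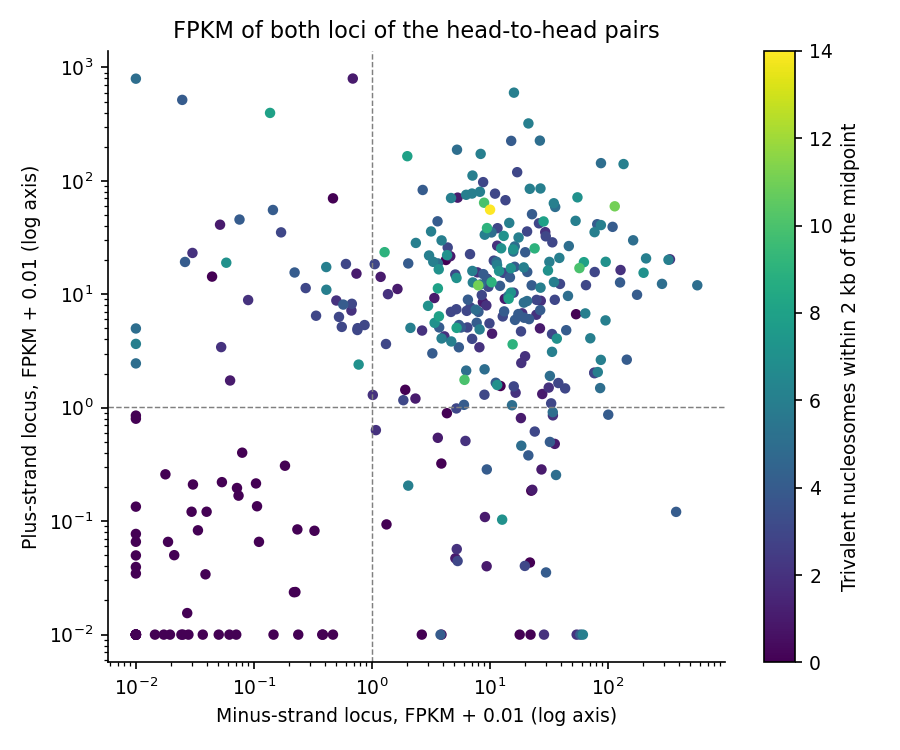
Each point is a head-to-head pair, with the FPKM of the minus-strand locus on the x axis and of the plus-strand locus on the y axis (FPKM + 0.01, both log axes), coloured by the number of trivalent nucleosomes within 2 kb of the midpoint; dashed lines mark an FPKM of 1. The 214 pairs at the upper right are a round cloud with many trivalent nucleosomes, and the pairs at the lower left have none.

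The chromatin of the pair followed these classes. Of the 214 pairs with both loci expressed, 210 had a trivalent nucleosome in the window (98.1%), compared with 83.8% of the windows of other expressed loci, which mostly hold 1 start. H3K27me3 and H3K9me3 were called in 0 of 214, which allows a share of up to 1.71% for each (exact 95% interval), and the shares at other expressed loci, 1.65% and 1.11%, lie within that limit. The 4 exceptions were APBB3,SRA1/SLC35A4, COX19/CYP2W1, CKB/TRMT61A and TOM1L2/LRRC48. APBB3,SRA1/SLC35A4 had no marked position at all, with an FPKM of 11.9 and 12.7 in the 2 columns for the locus of APBB3 and SRA1 and 1.59 and 1.49 for SLC35A4. CKB/TRMT61A had 4 H3K27ac positions and no H3K4me3, although CKB (brain-type creatine kinase) stood at 53.4 and 54.2.

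In pairs with no expressed locus, no trivalent nucleosome stood in the window, in 0 of the 30 silent pairs and 0 of the 24 others. A trivalent nucleosome was also rare elsewhere, in 1.44% of windows of other silent loci and 4.01% of other silent or intermediate loci. These shares lie within the exact intervals of 0 to 11.6 and 0 to 14.2, so the absence does not set these pairs apart. C21orf129/NCRNA00112, with a mean FPKM of 0.228 and 0, had 1 trivalent nucleosome outside the window. It lay within 2 kb of the C21orf129 start but over 2 kb from the midpoint. H3K4me3 was called in 6 of the 30 silent pairs (20.0%, interval 7.71 to 38.6), and the share at other silent loci, 11.2%, lies within that interval. It was called in 14 of the 24 (58.3%, interval 36.6 to 77.9), compared with 18.3% of other silent or intermediate loci. Each of the 24 pairs holds at least 1 intermediate locus, while 5339 of those 6701 other loci were silent. These shares therefore do not compare like classes, and no difference is read from them. The most H3K4me3 positions stood at HIST1H3G/HIST1H2BI, a pair of replication-dependent histone genes with 11, beside 2 of H3K9ac and none of H3K27ac. HIST1H3G was listed at 0.0059 and 0.0479 and HIST1H2BI at 0 in both columns, and since these genes have near-identical copies, how their reads were counted is uncertain. H3K27me3 was called in 7 of the 30 silent pairs (23.3%, interval 9.93 to 42.3), and the share in the windows of other silent loci, 16.5%, lies within that interval.

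Which side of the promoter carried the trivalent nucleosomes differed between these classes. In the 214 pairs with both loci expressed, they stood on both sides in 172 (80.4%), on the side of the higher locus alone in 20 and on that of the lower alone in 18. The mean was 2.28 ± 1.48 (SD over pairs) on the higher side and 2.19 ± 1.64 on the lower, so the sides were alike while the loci differed in level. Beside an intermediate partner, both sides held them in 22 of 44 pairs and the expressed side alone in 16. Beside a silent partner, both sides held them in 8 of 33, the expressed side alone in 18, the silent side alone in 0 and neither in 7. Over all 345 pairs, 146 had more on the side of the higher locus, 82 had more on that of the lower and 117 were equal, 68 of them with 0 on both sides.

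The size of the difference in FPKM went with the side. Where the higher locus had less than 3 times the FPKM of the lower, 34 pairs had more trivalent nucleosomes on its side and 51 had more on the other. From 3 to 10 times, the counts were 36 and 21. At 10 times or more, or with the lower locus listed at 0, they were 76 and 10. This last class holds 138 pairs, while 44 pairs with both loci expressed were over 10-fold apart. It therefore mixes the size of the difference with whether the lower locus was expressed. The counts were not split by ratio within the pairs with both loci expressed. PPP1R10/MRPS18B shows that single pairs can have more on the side of the lower locus. PPP1R10, a regulator of protein phosphatase 1, stood at 10.2 and 9.86 and had 12 trivalent nucleosomes on its side. MRPS18B, a mitochondrial ribosomal protein, stood at 56.2 and 55.1 and had 2.

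**Figure D2:**
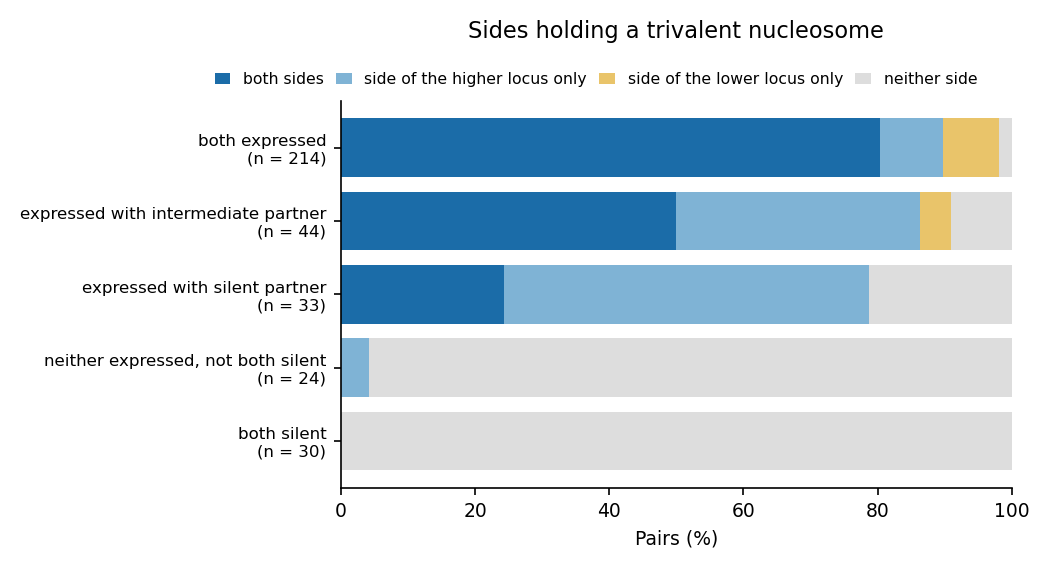
Bars show the share of pairs (%) in each expression class with a trivalent nucleosome within 2 kb on both sides, on the side of the higher or the lower locus alone, or on neither side; n is the number of pairs. Both sides carry it in 80.4% of the pairs with both loci expressed and in 24.2% of those with a silent partner, and neither side in all 30 silent pairs.

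The sides of the 33 silent partners of expressed loci held active marks at shares above those of silent loci elsewhere. For H3K4me3 and trivalent nucleosomes, the shares were not above those upstream of other expressed loci. A trivalent nucleosome stood on the silent side in 8 of 33 (24.2%, interval 11.1 to 42.3), compared with 39 of 5339 silent loci that are in no pair (0.730%), 0 of 83 silent pair loci without an expressed partner, and 0.862% of all 5455 analysed silent loci. Any of the 3 active marks stood there in 19 of 33 (57.6%, interval 39.2 to 74.5), compared with 9.76% of silent loci in no pair and 13 of 83. H3K4me3 stood on 18 of 33 (54.5%) and H3K27ac on 9. The side of a silent partner is also the upstream side of its expressed neighbour, and upstream of other expressed loci H3K4me3 stood in 55.7% and a trivalent nucleosome in 34.2%. FLJ16341 (mean FPKM 0) and RNU11 (0.0931, just under the limit for silent) had the most trivalent nucleosomes, 3 each. They stood beside REL (a NF-kappa-B subunit, mean FPKM 3.64) and TAF12 (a subunit of the general factor TFIID, 12.7). These, and the pairs named below and above as exceptions to a count, were chosen after their values were seen. Among the 30 silent partners of 200 bp or longer the share was 7 of 30 (23.3%). The 3 shorter ones, MIR3912, MIR3188 and MIR3678, are microRNA hairpins. All 8 pair loci under 200 bp were listed at 0, and whether such short RNA was measured at all was not tested.

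Some silent partners were listed at 0 in both columns, and the 5 such pairs with the highest FPKM of the expressed locus are described here. At NDUFA8/MORN5, NDUFA8 (a subunit of respiratory complex I) stood at 54.5 and 54.4 and MORN5 was listed at 0 in both columns, with a gap of 91 bp. Its 3 marked positions, 2 of them trivalent, all lay on the NDUFA8 side. At MIR3912/NPM1, NPM1 (nucleophosmin, a nucleolar histone chaperone) stood at 804 and 785 and held 5 trivalent nucleosomes against 0 on the microRNA side. At JUND/MIR3188, JUND (an AP-1 transcription factor, 62.4 and 60.5) had 4 on its side, and 2 stood on the microRNA side. At YIPF5/KCTD16, YIPF5 (29.3 and 28.2) had 2, and KCTD16, listed at 0, had 1 active position that was not trivalent. At GRB2/MIR3678, GRB2, an adaptor of growth factor receptors (57.7 and 59.2), had 4 against 0. Among silent partners above 0, the largest ratio of the means was at LOC285456/RPL34, with 0.0147 for LOC285456 and 516.7 for RPL34, a protein of the large ribosomal subunit.

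**Figure D3:**
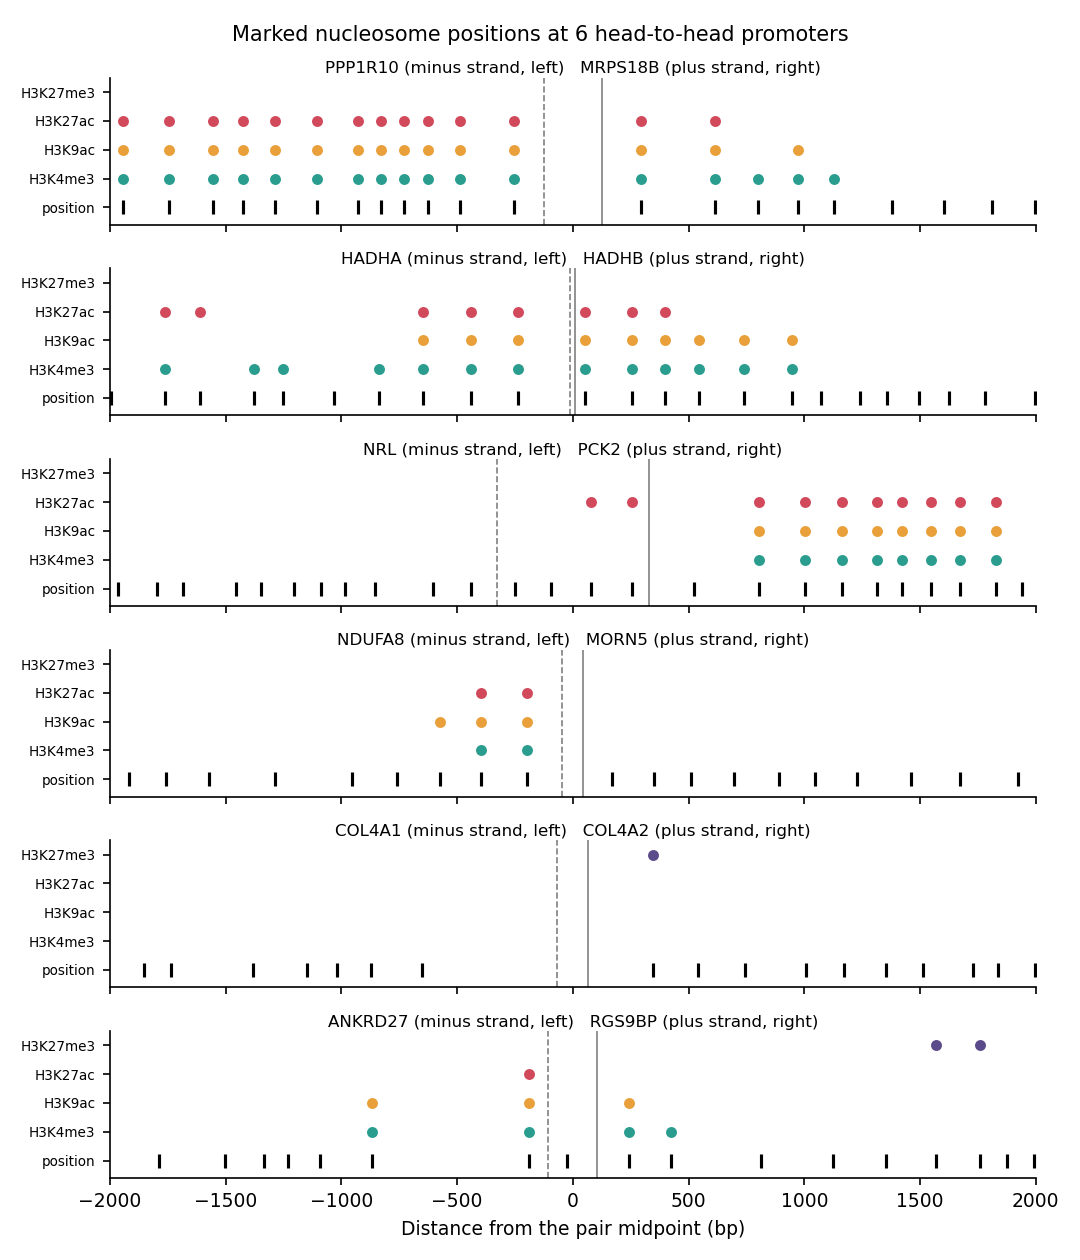
Nucleosome positions (black ticks) and the marks called at them (dots) are drawn against the distance from the midpoint (bp) for 6 pairs, with the minus-strand start dashed and the plus-strand start solid. PPP1R10/MRPS18B carries 14 trivalent positions, HADHA/HADHB 3 on each side, NRL/PCK2 8 on the PCK2 side and NDUFA8/MORN5 2 on the NDUFA8 side, while COL4A1/COL4A2 and ANKRD27/RGS9BP show H3K27me3.

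Expressed pair loci differed from other expressed loci less on the own side than on the upstream side. They had a trivalent nucleosome on the own side in 88.3% (446 of 505, interval 85.2 to 91.0), compared with 81.1% of other expressed loci (interval 80.1 to 82.1) and 40.9% of all analysed loci. At least 3 stood there in 36.4% of expressed pair loci and 42.9% of other expressed loci. The mean number there was 2.21 ± 1.55 (SD over loci) in pairs and 2.33 ± 1.83 elsewhere. Upstream, within 2 kb, 84.2% of expressed pair loci had at least 1, compared with 34.2% of other expressed loci, and the mean was 2.097 ± 1.63 against 0.596 ± 1.03. For a pair locus the upstream side is mostly the own side of its partner, so this difference is part of the layout. By FPKM class, the own-side share in pair loci rose from 6.90% below 0.1 to 36.2% from 0.1 to 1, 85.0% from 1 to 10, 89.9% from 10 to 50 and 93.2% from 50 on. Among other loci it was 0.730% below 0.1, 10.3% from 0.1 to 1 and 70.8% from 1 to 10, and the distance from pair loci was widest in the class from 0.1 to 1.

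**Figure D4:**
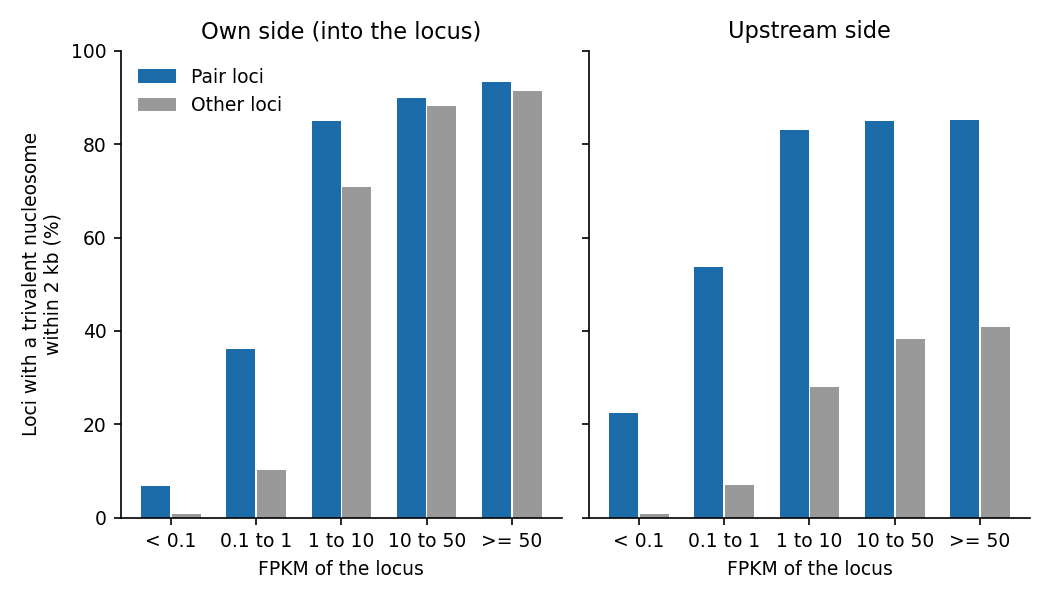
Bars show the share of loci (%) with a trivalent nucleosome within 2 kb on the own side (left) and on the upstream side (right), by FPKM class, for the 690 pair loci (blue) and the 12580 other loci (grey). On the own side the bars nearly meet from an FPKM of 10 on, and upstream they differ in each class, 85.1% against 40.9% at 50 or more.

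The share of pairs with a nucleosome position between the starts went with the gap. A position was centred in it in 3 of 79 pairs with a gap of 0 to 50 bp, 10 of 94 at 51 to 100 bp, 18 of 76 at 101 to 200 bp, 33 of 63 at 201 to 500 bp and 33 of 33 at 501 to 1000 bp. The distance between the nearest positions to the left and right of the midpoint had a median of 454 bp in the 214 pairs with both loci expressed. It was 362 bp around the start of 5868 other expressed loci, 348.5 bp in the 30 silent pairs and 217 bp around 5255 other silent starts. At 1 kb inside the loci of the same 214 pairs it was 198 bp in the plus-strand locus and 200 bp in the minus-strand locus. With the gap at most 200 bp, 165 pairs with both loci expressed had a median of 450.0 bp.

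Along the promoter the trivalent nucleosomes formed a peak on each side. In pairs with both loci expressed, 34.1 per 100 promoters were centred 200 to 300 bp from the midpoint, on the side of the higher locus and on that of the lower alike. Within 100 bp of the midpoint there were 3.74 and 5.14 per 100 promoters. At other expressed loci the upstream peak, 200 to 300 bp before the start, held 11.6 per 100, and the highest bin downstream, 100 to 200 bp from the start, held 27.5. In the 33 pairs with a silent partner, the silent side reached at most 9.09 per 100 promoters in a bin, which is 3 nucleosomes.

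**Figure D5:**
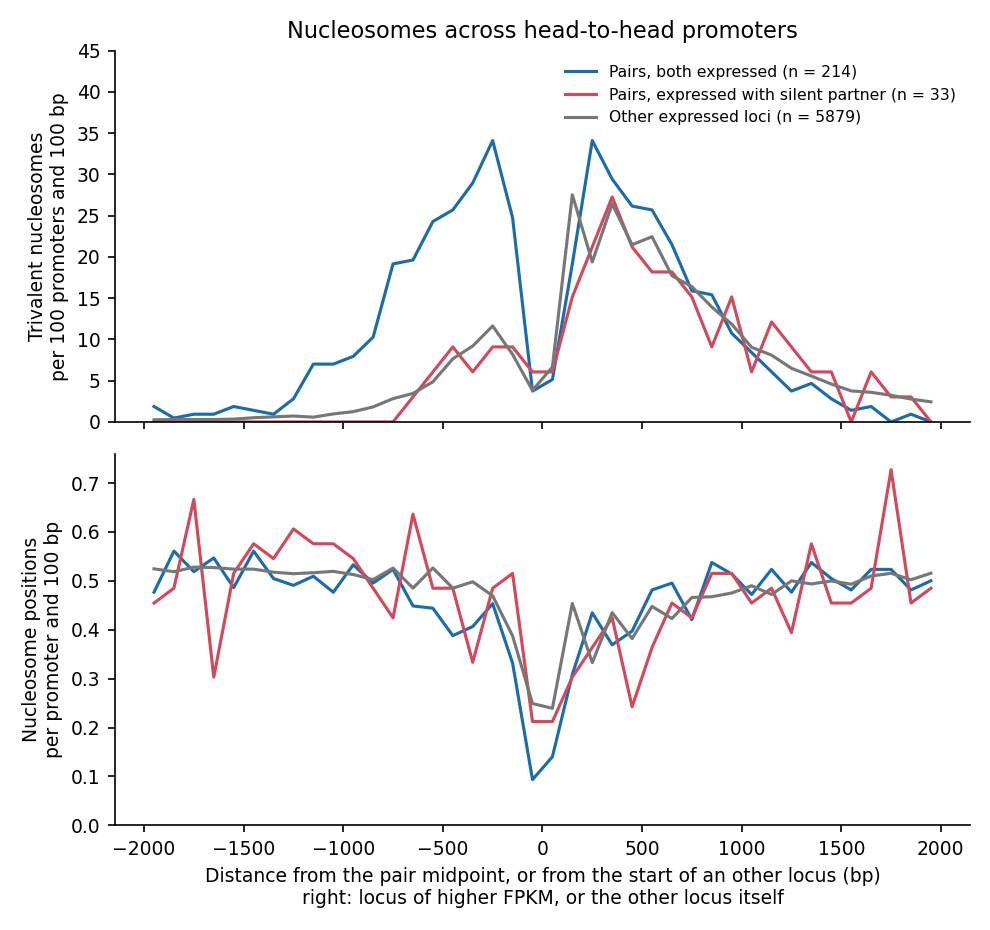
Trivalent nucleosomes per 100 promoters (top) and nucleosome positions per promoter (bottom) in bins of 100 bp, against the distance (bp) from the pair midpoint or from the start of another locus, with the higher or the other locus to the right. The 214 pairs with both loci expressed peak at 34.1 on both sides of a dip in positions, and the 5879 other expressed loci reach 11.6 upstream.

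The share of pairs with both loci expressed was highest in the class with the closest starts and lower in each wider class. This order was not tested. The intervals of all classes overlapped, which is not itself a test of a difference. Both loci were expressed in 70.9% of 79 pairs with a gap of 0 to 50 bp, 67.0% of 94 at 51 to 100 bp, 60.5% of 76 at 101 to 200 bp, 55.6% of 63 at 201 to 500 bp and 42.4% of 33 at 501 to 1000 bp. A trivalent nucleosome stood in 91.1%, 84.0%, 73.7%, 73.0% and 69.7% of the windows in the same order. The lower partner had a median FPKM of 4.48 in the closest class and 0.661 in the widest, while the higher partner went from 17.4 to 11.1. The exact 95% intervals were 59.6 to 80.6 for both loci expressed in the closest class and 25.5 to 60.8 in the widest.

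The well-known head-to-head pairs found by symbol were mostly expressed and marked on both sides. The rule found 8 pairs of a textbook list by symbol, and 7 of these had both loci expressed with trivalent nucleosomes on both sides. Over all 345 pairs, 172 were of this kind. Other entries of the list were not found. Of those, COL4A3/COL4A4, SURF1/SURF2, TAP1/PSMB9 and PSMD13/SIRT3 formed pairs once loci with shared coordinates were included. BRCA1/NBR2, a DNA repair gene and a non-coding partner 72 bp away, stood at 10.04 and 10.6 for BRCA1 and 12.7 and 12.8 for NBR2, with 3 and 6 trivalent nucleosomes. NPAT/ATM, a histone gene coactivator and the DNA damage kinase, had a gap of 23 bp, an FPKM of 5.08 and 5.34 for NPAT and 13.2 and 14.6 for ATM, and 3 and 4 trivalent nucleosomes. PRKDC/MCM4, a DNA repair kinase and a subunit of the replicative helicase, stood at 35.7 and 35.9 and at 58.1 and 59.6, with 1 and 4. In each of these pairs the locus with the higher FPKM had more trivalent nucleosomes on its side.

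In further textbook pairs the order was mixed. C11orf10/FEN1 placed the flap endonuclease FEN1 (29.8 and 29.95, 3 trivalent nucleosomes) beside a C11orf10 of 5.48 times its mean FPKM (160.1 and 167.8, with 2). PSMB1/TBP placed the TATA-binding protein (12.9 and 11.8, with 2) beside the proteasome subunit PSMB1 (284 and 291, with 3), over a gap of 820 bp. PDCD10/SERPINI1 stood at 34.1 and 35.8 for PDCD10 with 4, and 12.5 and 13.1 for SERPINI1, a serpin, with 2. COL4A1/COL4A2, the collagen IV chains of basement membranes, was the exception among the textbook pairs found by symbol. COL4A1 was at 0.0466 and 0.0817 and COL4A2 at 0.206 and 0.110, with 1 H3K27me3 position and no active mark. The textbook list also holds HAND2 with an antisense partner, which was not found under that symbol. The pair HAND2/NBLA00301, with both loci silent and no trivalent nucleosome in its window, was not counted among the textbook pairs.

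The pairs with the highest trivalent counts joined genes of differing function. PPP1R10/MRPS18B led with 14, followed by SEP15/HS2ST1 and ARID4B/GGPS1 with 11 each, and BST2/FAM125A and HECTD3/UROD with 10 each. SEP15, a selenoprotein of the endoplasmic reticulum, stood at 110.9 and 118.0, and HS2ST1, a heparan sulfate sulfotransferase, at 60.2 and 59.0. ARID4B stood at 7.67 and 8.26 and GGPS1, which makes geranylgeranyl diphosphate, at 12.01 and 11.9, so a high count did not need a high FPKM. BST2, an interferon-induced antiviral protein, stood at 57.3 and 57.6, with 2 on its side and 8 on that of FAM125A (17.6 and 16.4). UROD, an enzyme of heme synthesis, stood at 64.5 and 63.7 beside HECTD3 at 8.89 and 8.96.

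The pairs in which the lower partner was highest included genes of metabolism. HADHA/HADHB, which encode both subunits of the mitochondrial trifunctional protein of fatty acid oxidation, was the most even: HADHA stood at 137 and 135 and HADHB at 139 and 142, with 3 trivalent nucleosomes on each side and a gap of 21 bp. The lower partner came next at 87.5 in the locus of the snoRNA host SNHG1, at 59.6 in HS2ST1, at 55.3 in CCDC58 and at 44.4 in ATP6V1A, a subunit of the vacuolar proton pump. All 5 pairs had trivalent nucleosomes on both sides.

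Some pairs carried nearly all of their trivalent nucleosomes on 1 side although both loci were expressed. NRL/PCK2 had 0 on the side of NRL, a transcription factor of photoreceptors (2.30 and 1.67), and 8 on that of PCK2, the mitochondrial phosphoenolpyruvate carboxykinase (167 and 162). FAM200A/ZNF655 had 0 on the side of FAM200A (4.10 and 4.57) and 7 on that of ZNF655, a zinc finger gene (22.8 and 21.4). RG9MTD2/MTTP went the other way: RG9MTD2 (3.97 and 3.81) had 6, and MTTP, the microsomal triglyceride transfer protein that loads lipid onto apolipoprotein B (29.3 and 30.3), had 0. The most lopsided pairs therefore include cases in which the locus with the lower FPKM was on the marked side.

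H3K27me3 stood mainly at pairs with low expression. Of its 16 pairs, 7 were silent on both sides, 5 had an intermediate locus but no expressed one, and 4 had an expressed locus. LOC100288748/ESRP1 had the most, with 3 positions, an FPKM of 0.0455 and 0.0783 for LOC100288748 and 0.154 and 0.218 for ESRP1, a splicing regulator of epithelial cells. LOC26102/GPSM1 and LOC283731/ISLR2 had 2 each. LOC26102 was listed at 0 and GPSM1, a regulator of G protein signalling, at 0.870 and 0.814. LOC283731 stood at 0 and 0.0345 and ISLR2 at 0 and 0.0110. IGSF11/C3orf30, listed at 0 in both columns for both loci, had 1 position with H3K27me3 and 1 with H3K9me3.

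The 4 pairs with H3K27me3 and an expressed locus were PNMA2/DPYSL2, ANKRD27/RGS9BP, MAD2L2/C1orf187 and SP110/SP140. PNMA2/DPYSL2 had 2 H3K27me3 positions and no active mark, while DPYSL2, a cytoskeletal protein of axon growth, stood at 15.3 and 13.3 and PNMA2 at 0.0087 and 0.0598. ANKRD27/RGS9BP combined 2 H3K27me3 positions on the side of RGS9BP, an anchor of photoreceptor RGS9 (0.150 and 0.0480), with 1 trivalent nucleosome on the side of ANKRD27, a regulator of vesicle transport (9.22 and 8.94). The RGS9BP side also had 2 positions with H3K4me3 nearer to the start, 1 of them with H3K9ac. MAD2L2/C1orf187 had 1 H3K27me3 position and no H3K4me3, with a mean FPKM of 22.4 for MAD2L2 and 0.176 for C1orf187. SP110/SP140 also had 1 and no H3K4me3, with 4.32 and 0.885.

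The gene lists had unequal shares of their members in such pairs. Of 36 analysed DNA repair genes, 10 were in a pair (27.8%), whereas pair loci were 5.20% of all analysed loci. All 10 were expressed and had a trivalent nucleosome on their own side, from LIG4, DNA ligase IV, at 4.60 and 4.74 to XRCC6, the Ku70 end-binding protein, at 226.4 and 225.7. Among all 505 expressed pair loci, 88.3% had a trivalent nucleosome on their own side, so the count of 10 is near that share. The 26 repair genes outside pairs were also all expressed. Others of the 10 are APEX1, the main abasic site nuclease (119.9 and 118.3), PARP2, a poly(ADP-ribose) polymerase (25.7 and 23.9), and XPC, which recognises damage for nucleotide excision (11.01 and 11.1). The list was chosen with earlier results of these data known, and its share was not tested.

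The lists for the mitochondrial ribosome, proteasome, chaperones and respiratory chain had 5 to 9 members in pairs. The mitochondrial ribosome had 7 of 44 (15.9%), all expressed with a trivalent own side, and MRPL46/MRPS11 joined 2 of them at 48.3 and 45.1 and at 26.8 and 26.4. The proteasome list had 5 of 29 (17.2%), all expressed, and PSMA2/MRPL32 joined a proteasome subunit (109.6 and 109.9) to a mitochondrial ribosomal protein (39.1 and 39.5). Chaperones had 9 of 57 (15.8%), of which 7 were expressed. Respiratory chain genes had 5 of 51 (9.80%), all expressed, and 3 with a trivalent own side. ATP5A1, the alpha subunit of ATP synthase (333 and 339), had 0 on its side and 2 in its window. For comparison, 88.3% of all 505 expressed pair loci had a trivalent own side. Outside pairs, 37 of 37 mitochondrial ribosome genes, 22 of 24 proteasome genes, 37 of 48 chaperones and 40 of 46 respiratory chain genes were expressed.

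Lists with fewer expressed members showed the other end of the range. Replication-dependent histone genes had 8 of 44 in pairs (18.2%), and 2 of the 8, HIST2H2BE (5.90 and 6.28) and HIST2H2AC (1.72 and 1.78), were expressed and had 3 and 6 trivalent nucleosomes. Outside pairs 9 of 36 histone genes were expressed. Of 125 developmental transcription factors, 6 were in a pair (4.80%), and FOXA3, a factor of liver cells (14.5 and 13.6), was the only expressed one, while 21.8% of those outside pairs were expressed. SOX8, IRX5, FOXL2, HAND2 and IRX2 had a mean FPKM between 0 and 0.0836. Zinc finger ZNF genes had 20 of 358 (5.59%), with 14 expressed, and 74.3% of those outside pairs were expressed. Loci with a LOC name had 43 of 510 (8.43%), with 16 expressed and 22 with a trivalent own side, and 12.8% of those outside pairs were expressed. By contrast, the last lists were mostly expressed but had few members in pairs. Cytosolic ribosomal protein genes had 2 of 35, both expressed, with RPL34 at 504 and 529. Translation initiation factors had 3 of 32, EIF4E2, EIF2B4 and EIF2A, all expressed. RARS2, also expressed, was the only aminoacyl-tRNA synthetase of 18 in a pair, and none of 8 mitochondrial import genes was in 1. Outside pairs, 31 of 33, 25 of 29, 17 of 17 and 8 of 8 genes of these lists, in that order, were expressed. Symbols of antisense or LINC form did not occur among the analysed loci.

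The promoters were compared by sequence in the 378 pair loci with exactly 1 RefSeq promoter, in windows of 300 bases from 250 before to 50 after the start, on both strands. The CCAAT box stood in 49.7% of pair loci (interval 44.6 to 54.9), in 38.7% of 3219 other expressed loci and in 36.2% of all 22114 promoters of the table. The palindromic consensus of nuclear respiratory factor 1 (NRF1), searched in 1 exact form, stood in 20 pair promoters (5.29%, interval 3.26 to 8.05), in 2.55% of other expressed loci and in 1.37% of all. The ETS core CCGGAAG stood in 23.5%, 20.3% and 10.7% in the same order, and the GC box GGGCGG in 74.6%, 73.4% and 43.0%. The 378 pair loci include silent ones. In the 297 expressed pair loci the ETS core stood in 26.6% (interval 21.7 to 32.0) and the GC box in 75.4%. The CCAAT box stood in 50.8% of them and the NRF1 consensus in 5.39%. The partners' windows can overlap, so that a motif can be counted in both loci of a pair.

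For the remaining motifs and for base composition, pair loci lay nearer to other expressed loci than to all promoters. The TATA box TATAAA stood in 5.56% of pair loci, 5.62% of other expressed loci and 12.7% of all promoters. The consensus of YY1, likewise in 1 exact form, stood in 3.70%, 2.80% and 0.945% in the same order, and the cyclic AMP response element TGACGTCA in 3.44%, 3.79% and 2.01%. In expressed pair loci alone, the TATA box stood in 5.72%, YY1 in 4.71% (interval 2.60 to 7.78) and the cyclic AMP response element in 3.03%. A GC content of at least 50% with an observed to expected CpG ratio of at least 0.6 was met by 87.8% of pair loci, 85.8% of other expressed loci and 45.2% of all. The median GC content was 64.0% in pair loci and 66.0% in other expressed loci. A match is a run of letters, and binding of a factor was not measured.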

How the data were processed

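Nucleosome positions of untreated HepG2 cells were called by the authors with DANPOS from native MNase-Seq, and marked nucleosomes with NUCLIZE from ChIP-Seq of 5 marks against input (P and FDR at most 0.01, at least 4-fold). These deposited lists hold coordinates only. The deposited expression values are FPKM in 2 columns, from total RNA depleted of ribosomal RNA, and their depth is unknown. The submitters' processing notes name BWA, Bowtie, TopHat2 2.1.0, HOMER 4.7, edgeR and hg19, while the table has the layout of Cuffdiff. Its columns of fold changes and P and q values are the authors' own comparison of the 2 columns and were not used.

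Scripts in Python 3.11.15 with pandas 2.3.3, numpy 2.4.6, scipy 1.17.1 and matplotlib 3.10.9 inferred strand from restarts of the locus numbering and left out loci with shared coordinates. Of the other loci, 327 are head to head with, or lie in a pair that involves, a locus of shared coordinates. Each mark call was given to the position with the same identifier, beyond which it reached 3 bp on each side. Shares have exact Clopper-Pearson 95% intervals. The counting steps were tested on simulated pairs. With 1 sample per assay, no test across samples was possible.

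Pairs were named by rule: textbook pairs, the 5 with the most trivalent nucleosomes, the highest lower partner, the largest FPKM ratio with a silent partner (a partner at 0 first, then by the sum of FPKM), the most H3K27me3 or H3K9me3, the largest difference between sides, expressed pairs with no marked position, and 3 on each side of the gap limit. The members and lists were chosen with earlier results of these data known. Alternatives changed the gap limit, the window, the loci, the threshold, the FPKM column, the peak assignment and the correlation. RefSeq promoters (GRCh38.p14) were matched by symbol, and no coordinate was moved between builds. Some named results are not reported here.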

Additional observations from a re-analysis of the deposited data

How the results depend on the processing

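Of 84 alternative values for 14 results, 68 stayed within a set limit and 16 moved further. A reversal was defined only for the sign of the correlation, and none of its alternatives reversed. The limit was the exact 95% interval for a share, an approximate 95% interval for the correlation, 1.5 times for the number of pairs and 1 SD over loci for the median. Including loci with shared coordinates gave 917 pairs and a partner rank correlation of 0.197. The correlation was 0.016 over the 259 pairs with both loci at an FPKM of 0.1 or more, and Pearson r of log2(FPKM + 0.01) was 0.454. With a window of 1 kb, H3K27me3 stood in 2.61% of pairs and H3K9me3 in 0. With a window of 500 bp, H3K4me3 stood in 82.9%, H3K9ac in 77.1%, H3K27ac in 75.9%, H3K27me3 in 1.45%, H3K9me3 in 0 and a trivalent nucleosome in 74.8%, since a smaller window holds fewer positions. With expression called from an FPKM of 0.1, both loci were expressed in 75.1% of pairs and 83.2% of pair loci were expressed, and from 5 these were 39.7% and 58.3%. Chosen after seeing the data, silent partners of 200 bp or longer gave 23.3% in place of 24.2%, and other loci with no second named start gave 40.6% in place of 41.3%. No paired analysis was possible because each assay is 1 sample and there are no groups. The position lists carry no read counts, so an uncalled mark can be a mark below the calling limit.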
